A study of Mus musculus with 24 samples.

Results

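Left ventricles of Tm180 mice at 4 months of age were compared with left ventricles of nontransgenic (NTG) mice of the same age, 3 Affymetrix arrays against 3. These 6 arrays of the series' 24 were chosen by their sample titles, and titles of the double mutant (Tm180/PLB KO) were kept apart. Tm180 mice carry an α-tropomyosin transgene, and NTG mice carry none. The labels state neither strain nor sex. The titles number 3 biological replicates in each group, and nothing says that mice were pooled. All 24 arrays, among them the phospholamban knockout (PLB KO) and Tm180/PLB KO at 12 months, set the spread used in the tests. Other comparisons, to show where the main one differs, took NTG and Tm180 at 12 months. At 4 months they took PLB KO with and without the transgene, 3 arrays each. Phospholamban was present in both groups of the main comparison and missing from both groups of that last pair. A transgene of unmutated tropomyosin was in none of these groups, so an effect of the mutation and one of carrying any transgene cannot be told apart.

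Tropomyosin is a coiled-coil protein that lies along the actin filament of the sarcomere and, with troponin, sets how much calcium is needed for myosin to bind. In the Tm180 line, as published, a tropomyosin with a missense mutation of familial hypertrophic cardiomyopathy is made in cardiomyocytes under the α-myosin heavy chain promoter. Hypertrophic hearts are known to re-express genes of the fetal ventricle, to lay down collagen-rich matrix from fibroblasts, and to burn less fatty acid.

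All values are log2 expression levels, on which a difference of 1 is a 2-fold change. The 15918 genes tested had a median Tm180 minus NTG difference of 0.01 and the 6 arrays correlated within their group at 0.9615 to 0.9835. Of 12 cardiomyocyte markers, which check the labelled tissue, 0 were called, or 2 lower with the number of the replicate as a block. Of the 12, 10 had the lower mean in Tm180 (median -0.10), against 45.9% of all genes. Their mean level was 12.82, 12.89 and 12.83 in NTG and 12.71, 12.74 and 12.72 in Tm180, high on all 6 arrays and without overlap. Tpm1, the α-tropomyosin gene itself, was 12.78, 12.87 and 12.83 in NTG and 13.11, 13.20 and 13.18 in Tm180. The 3 Tm180 levels were all above the 3 NTG levels, and the difference was 0.34 ± 0.089 (SE; 1.26-fold, adjusted p = 0.0984), which missed the threshold. Not given in the sources used here is whether its probes read the transgene. Replicate 1 of each group stood apart from replicates 2 and 3. The mean of 3 Y-linked genes was 7.53 and 7.56 in NTG and Tm180 replicate 1 and between 2.91 and 3.64 in the other 4 hearts. Xist, the RNA of the inactive X chromosome, was at 4.26 and 4.14 in replicate 1 and at 9.66 to 10.24 in the others. The mean of 25 immediate-early genes was 8.07 and 7.97 in replicate 1 against 6.77 to 7.04. Both groups thus held the same mix, 1 heart of the one pattern and 2 of the other, and the replicate number went with it.

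With calls made at an adjusted p under 0.05, limma called 81 genes, 0.509% of those tested. Of these, 47 were higher in Tm180 (0.295% of genes) and 34 lower (0.214%). The difference was at least 1.5-fold in 65 of them and at least 2-fold in 27, and the 3 arrays of the groups did not overlap in any gene named here as called. Across all genes, 5.28% had every Tm180 heart above every NTG heart and 5.32% had every one below. Same-numbered hearts of the groups deviated together, with correlations of 0.748, 0.388 and 0.755. A fit that blocked on replicate number (the replicate block below) raised the count to 557, of which 214 were higher and 343 lower, and it held all 81. A fit on the 6 compared arrays alone called 13 genes (11 higher and 2 lower) and kept 10 of the 80 calls named below, and there no gene list below had more than 2 called. Median centring of the arrays gave 88 calls, 41 higher and 47 lower. The count fell with most single hearts left out: leaving out NTG replicate 1 gave 23, NTG replicate 2 gave 25, Tm180 replicate 1 gave 22 and Tm180 replicate 2 gave 34. Leaving out NTG replicate 3 gave 56. Without Tm180 replicate 3 it was 81, with 59 of the 80 calls named below kept. Any heart left out also leaves fewer arrays for the test. Of the 80 called genes with a gene name rather than a clone name, 18 were called whichever of the 6 arrays was left out: Thbs4, Nppa, Myh7, Cilp, P3h2, Pamr1, Adamts20, Gnao1, Ctsk, Xirp2, Pdgfrl, Rtn4 and Tnfsf18 among the higher, and Mylk4, Slc2a12, Tmod4, Slc36a2 and Rbfox1 among the lower. The direction held in all 80 whichever array was left out, as it must where the groups do not overlap.

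**Figure D1:**
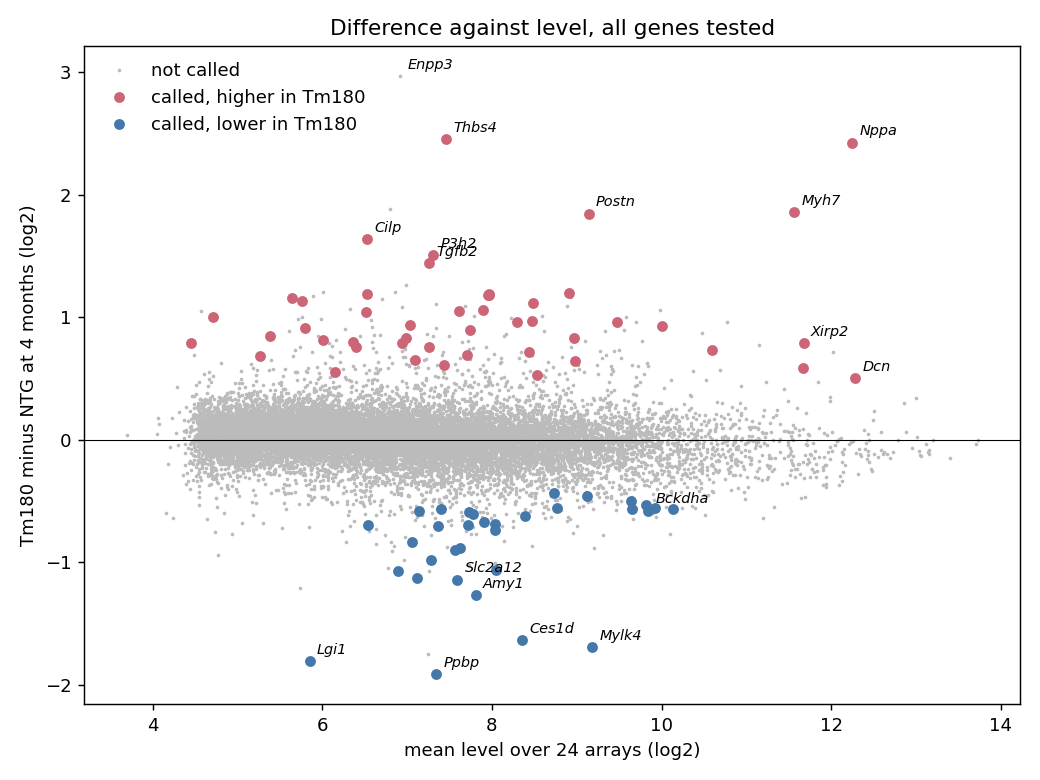
Tm180 minus NTG difference at 4 months (y axis, log2) against the mean level over 24 arrays (x axis, log2) for the 15918 genes tested, 1 point a gene. The 81 called genes are coloured, 47 above and 34 below the zero line, and Enpp3 is labelled as the gene with the highest difference that was not called.

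All 19 genes measured of the fetal ventricle and of hypertrophy had the higher mean in Tm180, as did 54.1% of all genes. Their median difference was 0.67 against 0.01 over all genes. In 12 the groups did not overlap, against 5.28% of all genes, and 4 were called higher (0.295% of all genes). That count was 7 with the replicate block, 1 with the 6 compared arrays alone and 3 without any one NTG heart or without Tm180 replicate 1 or 2. Nppa, the precursor of atrial natriuretic peptide, was 9.98, 10.44 and 11.09 in NTG and 13.19, 12.99 and 12.60 in Tm180. Every Tm180 heart was above every NTG heart, and the NTG hearts spread more widely than the Tm180 hearts. Nppa rose by 2.42 ± 0.28 (SE; 5.37-fold, adjusted p = 0.00018). Myh7, the slow β-myosin heavy chain that the mouse ventricle gives up after birth, was 9.98, 9.98 and 10.77 in NTG and 12.54, 11.77 and 12.00 in Tm180. NTG replicate 3 was the highest of its group and still lay below all Tm180 hearts, and Myh7 rose by 1.85 ± 0.21 (SE; 3.62-fold, adjusted p = 0.00018). Its adult counterpart Myh6, the α-myosin heavy chain, differed by -0.11 ± 0.084 and was not called. Xirp2, which binds actin at the intercalated disc, was 11.19, 11.03 and 11.25 in NTG and 12.13, 11.89 and 11.82 in Tm180, narrow in both groups. Xirp2 rose by 0.79 ± 0.11 (SE; 1.73-fold, adjusted p = 0.00107). Mybpc2, the fast skeletal form of myosin-binding protein C, was 7.72, 7.91 and 7.80 in NTG and 9.05, 8.68 and 8.63 in Tm180 and rose by 0.97 ± 0.19 (SE; 1.96-fold, adjusted p = 0.0216). Members that missed the threshold included Nppb, the brain natriuretic peptide precursor, at 0.78 ± 0.26, and Ankrd1, a stress-responsive titin-binding protein, at 0.30 ± 0.11. Chosen after their values were seen, Ccn2, connective tissue growth factor, differed by 1.05 ± 0.25, Rcan1, a calcineurin inhibitor, by 0.96 ± 0.25 and Acta1, skeletal α-actin, by 0.72 ± 0.34.

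Nppa is also an atrial transcript, and atrial genes were therefore read beside it. The mean of Myl7, Myl4 and Sln, which mark atrial myocytes, was 5.72, 7.23 and 6.45 in NTG and 5.88, 7.23 and 6.99 in Tm180. The groups overlapped, and 1 of 12 atrial genes was called, Nppa itself. With that atrial mean as a covariate Nppa was higher by 2.39 and 76 of the 80 named called genes kept their call. Of 13 genes of the natriuretic peptide system only Nppa was called, or 1 higher and 1 lower with the replicate block. Its other members spanned receptors, the processing enzyme Corin and degrading phosphodiesterases, with a list median of 0.03.

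Among the 20 thin filament genes 0 rose and 1 fell. Tmod4, a tropomodulin that caps the slow-growing end of actin filaments, was 7.77, 7.30 and 7.51 in NTG and 6.40, 6.16 and 6.63 in Tm180, with no overlap. It fell by 1.13 ± 0.18 (SE; 2.19-fold, adjusted p = 0.0032). The cardiac actin Actc1 differed by -0.001 ± 0.076 and troponin T, Tnnt2, by -0.10 ± 0.087, and neither was called. Of 19 thick filament genes Myh7 and Mybpc2 rose and Mylk4 fell. Mybpc2 lost its call when any array but Tm180 replicate 3 was left out. Mylk4, of the myosin light chain kinase family, was 10.59, 10.43 and 10.42 in NTG and 8.90, 8.69 and 8.78 in Tm180. Within each group its levels lay close together and the groups were far apart, and Mylk4 fell by 1.69 ± 0.23 (SE; 3.23-fold, adjusted p = 0.000927). The regulatory light chain Myl2 differed by -0.08 ± 0.089. Of 29 genes of the Z disc and intercalated disc 1 rose, Xirp2, and the median was 0.02. Actn2, the α-actinin of the Z disc, differed by -0.0038 ± 0.086. Ankrd23, a muscle ankyrin repeat protein that binds titin and stands in none of the lists, was 11.28, 11.15 and 11.49 in NTG and 12.02, 11.87 and 11.78 in Tm180 and rose by 0.58 ± 0.11 (SE; 1.5-fold, adjusted p = 0.0206).

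**Figure D2:**
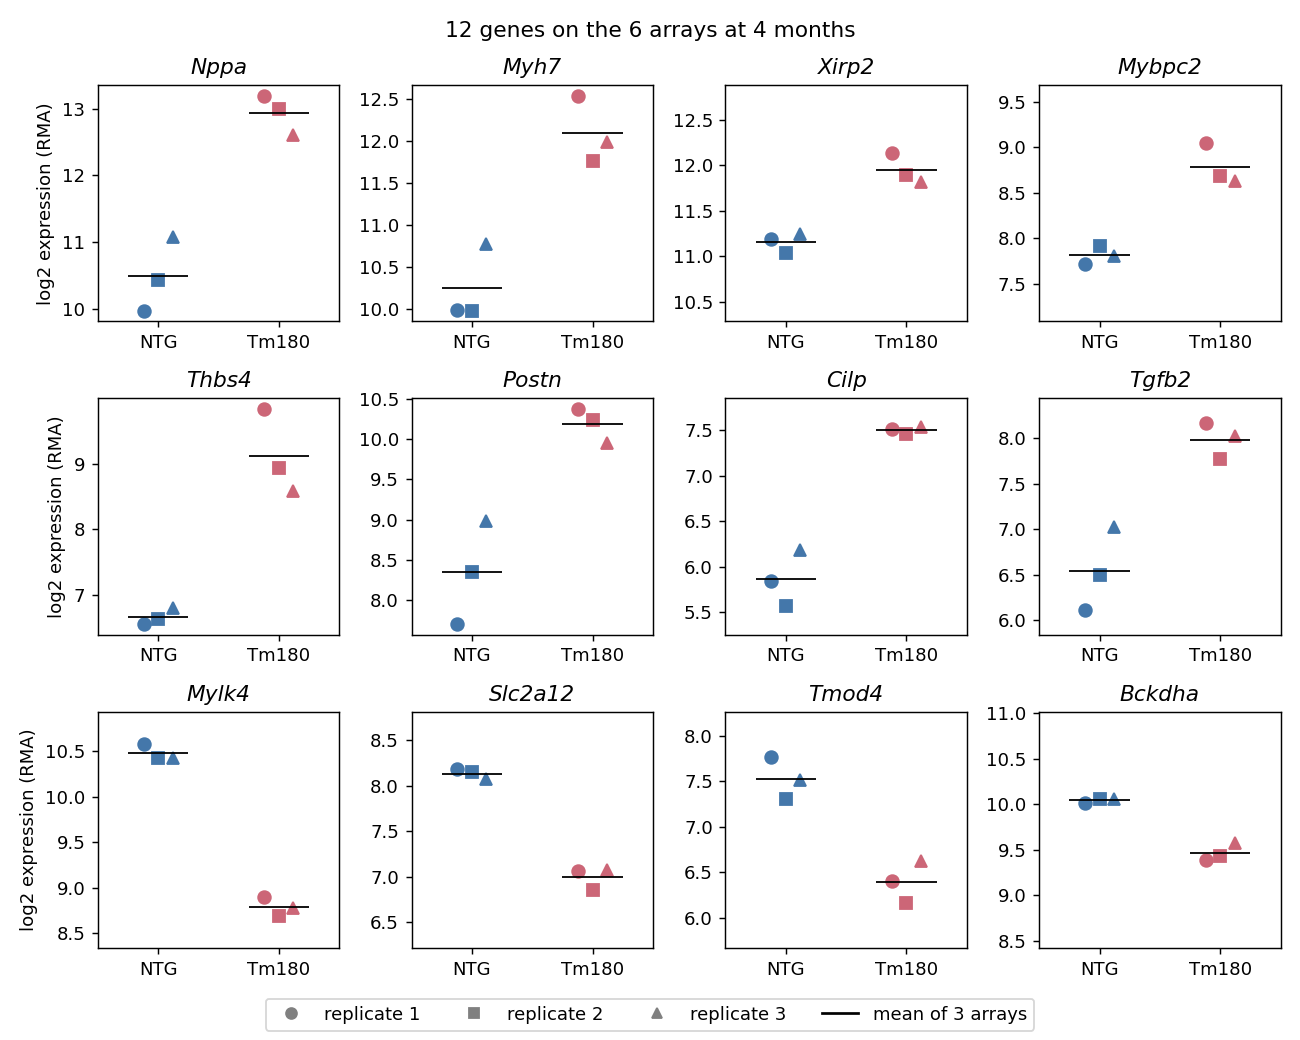
Log2 expression level (y axis) of 12 genes in the 3 NTG and 3 Tm180 hearts at 4 months (x axis), with a marker shape for each replicate number and a bar for the mean of 3 arrays; each panel has its own range. In every panel the 3 Tm180 hearts lie on one side of the 3 NTG hearts, 8 genes above and 4 below.

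Promoter sequences of the called genes were searched for letters known from promoters of muscle and stress-responsive genes. RefSeq promoters (build GRCm38.p6, 250 bases before to 50 after the gene's start, first start listed) were held for 31 of the 47 called higher genes and 29 of the 34 called lower genes. Of 7 motifs searched on both strands, the M-CAT core, CATTCC, which TEAD transcription factors bind, was in 12 of the 31 higher genes (38.7%) and in 3 of the 29 lower genes (10.3%). It was in 12.5% of the 12514 tested genes with a promoter and in 14.6% of all 27025 promoters. The 12 were Thbs4, Myh7, Svep1, Ahnak2, Mybpc2, Hspa1l, Rtn4, Tnfsf18, Otulin, Itih2, Ppfibp1 and Ankrd23. In Myh7 the match starts at -201 and in Thbs4 overlapping matches start at -197 and -192, counted from the gene's start. The bases before the start of these members, the myosin and the matrix gene with the highest differences among the 12, are given first: Myh7 on chr14:54994627-54994876 and Thbs4 on chr13:92794819-92795068. Windows around the match follow for Mybpc2 (chr7:44524709-44524748), Svep1 (chr4:58206813-58206846) and Rtn4 (chr11:29692706-29692745), to show the letters in further members of the 12. Rtn4 lies on the plus strand and the others on the minus strand, each is written 5′ to 3′ along the gene, and capitals mark CATTCC or its reverse complement GGAATG.
Myh7: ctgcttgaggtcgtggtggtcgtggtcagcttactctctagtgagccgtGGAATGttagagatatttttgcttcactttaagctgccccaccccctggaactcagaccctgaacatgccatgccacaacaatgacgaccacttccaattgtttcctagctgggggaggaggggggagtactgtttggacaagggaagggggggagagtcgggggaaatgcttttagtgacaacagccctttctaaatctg
Thbs4: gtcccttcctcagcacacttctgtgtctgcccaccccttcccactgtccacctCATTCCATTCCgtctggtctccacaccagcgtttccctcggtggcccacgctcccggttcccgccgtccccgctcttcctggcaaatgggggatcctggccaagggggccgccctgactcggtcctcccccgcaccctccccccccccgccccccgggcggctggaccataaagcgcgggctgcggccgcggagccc
Mybpc2: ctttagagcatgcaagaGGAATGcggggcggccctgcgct
Svep1: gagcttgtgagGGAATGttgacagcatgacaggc
Rtn4: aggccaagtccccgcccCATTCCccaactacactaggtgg
The other 6 motifs were less frequent in the higher genes than CATTCC. The AP-1 letters TGACTCA were in 3 of 31 (9.68%, against 3.86% of tested genes with a promoter), the GATA letters AGATAA in 3 (9.68% against 7.32%), the SMAD letters CAGACA in 5 (16.1% against 17.1%) and TATAAA in 5 (16.1% against 8.47%). The MEF2 site was in 1 (3.23% against 0.511%) and the CArG box in 0 (against 1.36%). The Nppa window held no CATTCC. Tead1, a gene of a TEAD factor, was 10.30, 10.42 and 10.63 in NTG and 10.27, 10.37 and 10.59 in Tm180, the groups overlapping, with a difference of -0.04 ± 0.19. These are matches of letters in a short window, and binding was not measured.

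Extracellular matrix genes were the next group. All 23 collagens had the higher mean in Tm180, against 54.1% of all genes, with a median of 0.44. In 10 of them the groups did not overlap, against 5.28% of all genes with every Tm180 heart above. Col12a1, a fibril-associated collagen, was 5.39, 5.17 and 5.36 in NTG and 6.83, 6.21 and 6.36 in Tm180, and as the 1 collagen called it rose by 1.16 ± 0.24 (SE; 2.23-fold, adjusted p = 0.0258). The fibrillar collagen Col1a1 was 8.64, 9.37 and 9.82 in NTG and 9.77, 10.55 and 10.52 in Tm180. Its groups overlapped, NTG replicate 3 lying above Tm180 replicate 1, and its difference of 1.003 ± 0.36 was not called. Col1a2 differed by 0.89 ± 0.30. With the replicate block 8 collagens were called higher, and 0 were called without any one of the NTG hearts or without Tm180 replicate 1. Of 21 collagen-processing genes 1 was called, or 4 with the block. P3h2, a prolyl hydroxylase, was 6.46, 6.68 and 7.03 in NTG and 8.40, 7.97 and 8.33 in Tm180 and rose by 1.51 ± 0.20 (SE; 2.85-fold, adjusted p = 0.000927). The lysyl hydroxylase Plod1 differed by -0.01 ± 0.21.

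Of 26 matricellular genes, secreted proteins that signal to cells from the matrix, 3 rose, against 0.295% of all genes. The higher mean was in Tm180 in 24 (median 0.36), against 54.1% of all genes. Thbs4, a thrombospondin, was 6.56, 6.64 and 6.80 in NTG and 9.84, 8.93 and 8.58 in Tm180. The NTG hearts lay close together, Tm180 replicate 1 was the highest, and Thbs4 rose by 2.45 ± 0.35 (SE; 5.46-fold, adjusted p = 0.00134). Postn, periostin, was 7.70, 8.35 and 8.99 in NTG and 10.38, 10.24 and 9.95 in Tm180. Its NTG hearts spread widely without reaching the Tm180 hearts, and it rose by 1.84 ± 0.30 (SE; 3.59-fold, adjusted p = 0.00471). Cilp, a matrix protein first known from cartilage, was 5.85, 5.57 and 6.19 in NTG and 7.52, 7.46 and 7.54 in Tm180, tight in Tm180. Cilp rose by 1.64 ± 0.19 (SE; 3.11-fold, adjusted p = 0.00018). Sparc differed by 0.49 ± 0.19 and Sparcl1 by 0.26 ± 0.11, without a call. With the replicate block 8 matricellular genes were called, and without NTG replicate 1, 2.

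Of 18 elastic fibre and microfibril genes 2 rose, or 7 with the replicate block, and 0 without NTG replicate 1, Tm180 replicate 1 or Tm180 replicate 2. Mfap5, a microfibril-associated protein, was 7.71, 8.41 and 8.84 in NTG and 9.56, 9.55 and 9.44 in Tm180. Its NTG hearts were spread and its Tm180 hearts were not, and it rose by 1.198 ± 0.26 (SE; 2.29-fold, adjusted p = 0.0373). Aebp1, a collagen-binding secreted protein, was 6.97, 7.22 and 7.38 in NTG and 8.37, 8.48 and 8.28 in Tm180 and rose by 1.19 ± 0.21 (SE; 2.28-fold, adjusted p = 0.0105). Of 19 proteoglycans 1 was called, or 5 with the block and 0 whichever array was left out. Dcn, decorin, which binds collagen fibrils, was 11.89, 12.10 and 12.11 in NTG and 12.64, 12.47 and 12.50 in Tm180. The gap between its groups was wider than either group's range, and Dcn rose by 0.50 ± 0.10 (SE; 1.42-fold, adjusted p = 0.0297). Biglycan, Bgn, differed by 0.87 ± 0.26 and was not called. Of 28 matrix proteases and inhibitors 3 rose, or 6 with the replicate block (and 1 fell), and 1 of the 28 was called without NTG replicate 1, NTG replicate 2, Tm180 replicate 2 or Tm180 replicate 3. The cysteine protease Ctsk, cathepsin K, was 5.75, 5.86 and 6.48 in NTG and 7.29, 6.99 and 6.94 in Tm180 and rose by 1.04 ± 0.16 (SE; 2.06-fold, adjusted p = 0.0032). Mmp14, a membrane-bound metalloprotease that activates the gelatinase Mmp2, rose by 1.06 ± 0.23 (SE; 2.08-fold, adjusted p = 0.0352), and Mmp2 rose by 0.96 ± 0.20 (SE; 1.94-fold, adjusted p = 0.033). The inhibitor Timp3 differed by -0.12 ± 0.15. Of 28 integrin and adhesion genes 0 were called, 4 higher and 1 lower with the replicate block. Integrin β1, Itgb1, differed by 0.13 ± 0.12.

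Tgfb2 and Tgfb3, secreted ligands of the transforming growth factor β pathway, rose. Tgfb2 was 6.11, 6.50 and 7.02 in NTG and 8.17, 7.77 and 8.02 in Tm180, with the lowest Tm180 heart above the highest NTG heart. It rose by 1.44 ± 0.27 (SE; 2.71-fold, adjusted p = 0.016). Tgfb3 was 7.03, 7.30 and 7.38 in NTG and 7.97, 8.21 and 8.19 in Tm180 and rose by 0.89 ± 0.20 (SE; 1.86-fold, adjusted p = 0.0453), a call that was lost whichever array was left out. These were 2 of 39 genes of the pathway, whose median was 0.13. With the replicate block 5 were called, and without NTG replicate 1, NTG replicate 2 or Tm180 replicate 1, 0 were. The receptor Bmpr2 differed by 0.13 ± 0.096 and the latent binding protein Ltbp4 by 0.42 ± 0.33. Of 31 insulin-like and other growth factor genes 1 was called (5 higher and 1 lower with the block), Igfbp6, an insulin-like growth factor binding protein. It was not called without any one NTG heart, without Tm180 replicate 1 or with the 6 compared arrays alone. Igfbp6 was 7.60, 7.65 and 7.42 in NTG and 9.09, 8.34 and 8.13 in Tm180, Tm180 replicate 1 being the highest, and rose by 0.96 ± 0.19 (SE; 1.95-fold, adjusted p = 0.0192).

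All 12 fibroblast markers had the higher mean in Tm180 (median 0.52), against 54.1% of all genes, and Dcn, Mmp2 and Pi16 were called. The block raised that count to 6, and without NTG replicate 1, NTG replicate 2, Tm180 replicate 1 or Tm180 replicate 2 it was 0. Pi16, a peptidase inhibitor of fibroblasts, was 6.45, 6.67 and 6.59 in NTG and 7.43, 7.78 and 7.31 in Tm180 and rose by 0.94 ± 0.19 (SE; 1.92-fold, adjusted p = 0.0216). Of 12 activated fibroblast markers all had the higher mean (median 0.91) and 4 were called, Thbs4, Postn, Cilp and Col12a1, or 2 without NTG replicate 1 and with the 6 compared arrays alone. In tissue made of many cell types, more cells of a type and more RNA per cell cannot be told apart. The mean level of the 12 fibroblast markers was 8.89, 9.47 and 9.50 in NTG and 9.64, 10.05 and 9.98 in Tm180. NTG replicate 1 was lowest and the groups did not overlap. Macrophage markers were higher in the mean in 12 of 12 (median 0.42) and 0 were called. Their mean levels were 7.14, 7.78 and 7.97 in NTG against 7.71, 8.24 and 8.11 in Tm180, which overlap. Endothelial markers (median -0.05), mural cell markers (-0.04), lymphocyte markers (0.03) and neutrophil markers (0.01) had medians near that of all genes, with 0 called in each. The 6 lymphocyte and 7 neutrophil genes tested had mean levels of 4.919 to 5.365 and 4.467 to 5.288 on the 6 arrays. These lie close to the level of 4.83 used to filter dim genes, so their medians say little about such cells. The 12 cardiomyocyte markers, given above, had a lower mean level in every Tm180 heart than in any NTG heart. What these cell types contribute to the matrix genes was not tested.

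**Figure D3:**
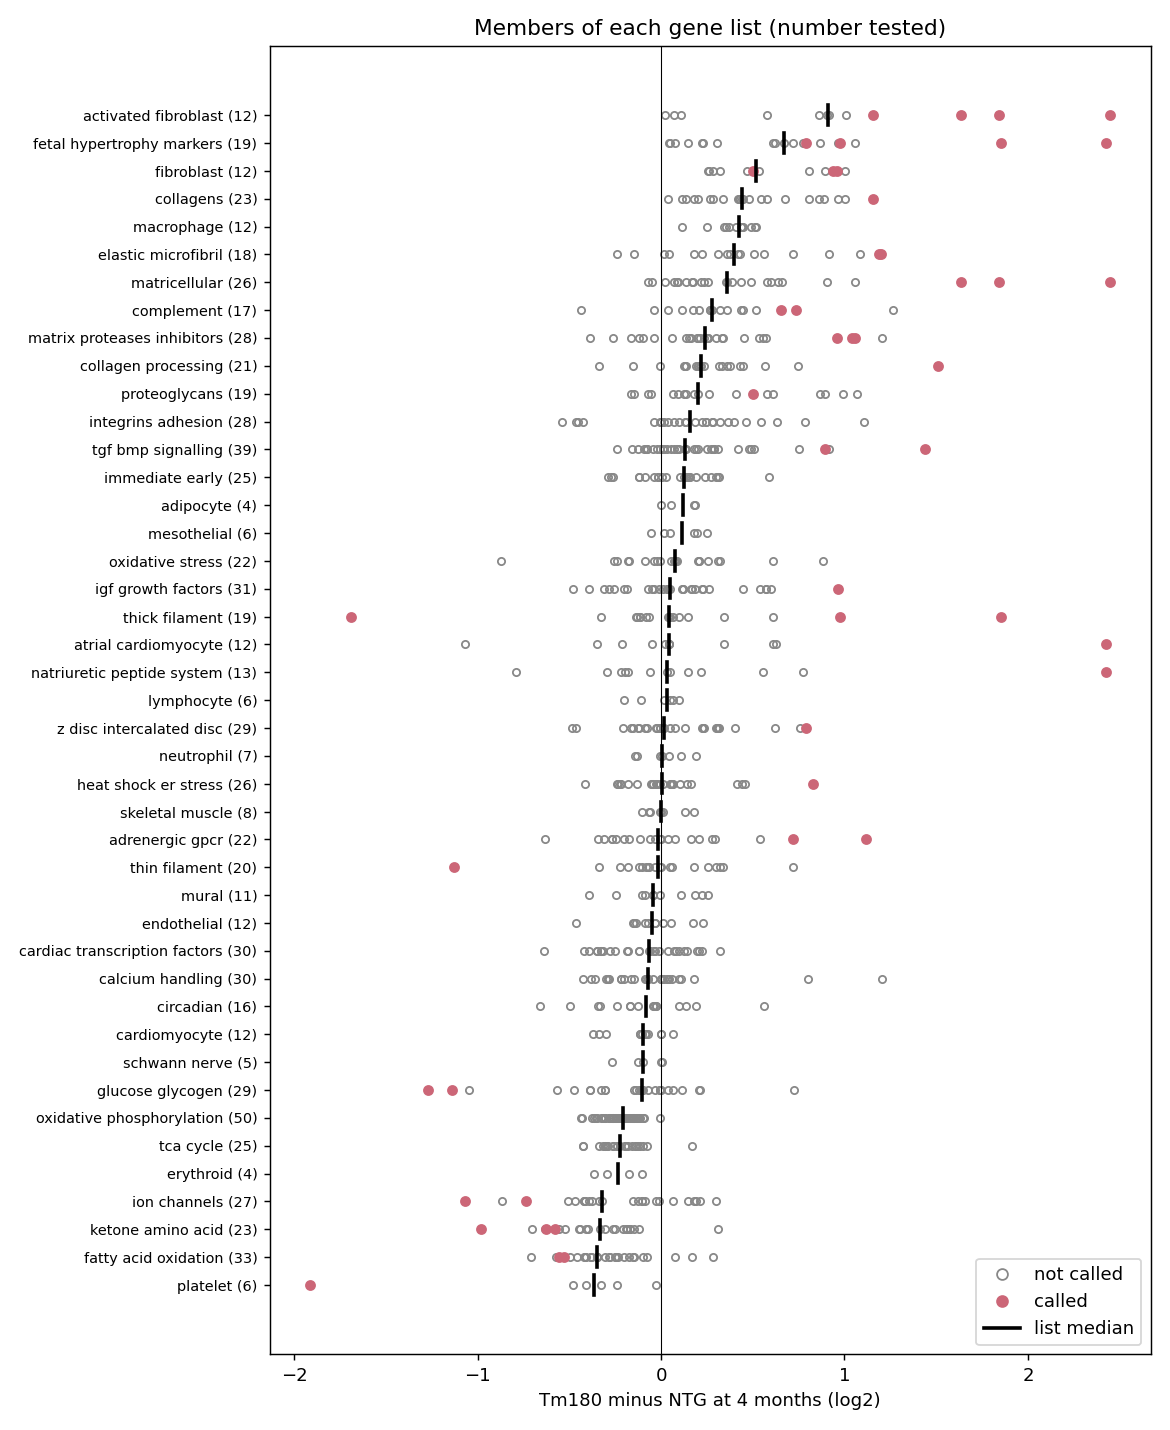
Tm180 minus NTG difference at 4 months (x axis, log2) of each tested member of the gene lists (y axis, number tested in brackets), open where not called and filled where called, with a black bar at the list's median. Activated fibroblast and fetal markers have the highest medians, 0.91 and 0.67, and the platelet and fatty acid oxidation lists the lowest, -0.37 and -0.35.

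Of 27 ion channel genes 2 fell, 0 rose and 21 had the lower mean (median -0.32), against 45.9% of all genes. With the replicate block 8 fell. Scn4b, a β subunit of the sodium channel, was 7.60, 7.70 and 7.51 in NTG and 6.19, 6.75 and 6.67 in Tm180, with no overlap. It fell by 1.07 ± 0.21 (SE; 2.1-fold, adjusted p = 0.0226). Kcnd2, a pore subunit of the transient outward potassium current, was 8.69, 8.40 and 8.53 in NTG and 7.44, 7.94 and 8.03 in Tm180 and fell by 0.74 ± 0.16 (SE; 1.67-fold, adjusted p = 0.0385), Tm180 replicate 1 being the lowest. Neither was called without any one of the NTG hearts or without Tm180 replicate 1, where the list median was -0.18. The gap junction gene Gja1 differed by -0.15 ± 0.14. Of 30 calcium handling genes 0 were called (median -0.07), or 2 higher and 2 lower with the replicate block. Every Tm180 heart was above every NTG heart in 2 of the 30 and below in 7, against 5.28% and 5.32% of all genes. The calcium pump Atp2a2 differed by -0.15 ± 0.076, its inhibitor Pln by -0.07 ± 0.32 and the release channel Ryr2 by -0.30 ± 0.12.

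Of 22 genes of adrenergic and other G protein signalling 2 rose, and Gnao1 alone was called when any array but Tm180 replicate 2 was left out. Gnao1, an inhibitory G protein α subunit, was 7.58, 7.80 and 7.95 in NTG and 8.997, 8.80 and 8.90 in Tm180. The groups were separated by more than either one's range, and Gnao1 rose by 1.12 ± 0.15 (SE; 2.17-fold, adjusted p = 0.000955). Grk5, a kinase that desensitises G protein-coupled receptors, was 8.16, 8.08 and 8.18 in NTG and 8.998, 8.71 and 8.87 in Tm180 and rose by 0.72 ± 0.14 (SE; 1.65-fold, adjusted p = 0.0219). Outside the lists, Crhr2, the cardiac receptor of urocortins, was 7.76, 7.86 and 7.65 in NTG and 6.75, 7.22 and 7.17 in Tm180 and fell by 0.71 ± 0.13 (SE; 1.63-fold, adjusted p = 0.0141).

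Most fuel genes had the lower mean in Tm180, and few of them passed the test. Of 23 genes of ketone and amino acid catabolism 22 had the lower mean, against 45.9% of all genes. In 16 every Tm180 heart lay below every NTG heart, against 5.32% of all genes, and 3 fell, against 0.214%. Bckdha, a subunit of the branched-chain ketoacid dehydrogenase, was 10.02, 10.06 and 10.05 in NTG and 9.38, 9.43 and 9.58 in Tm180. Each group was tight and it fell by 0.58 ± 0.10 (SE; 1.49-fold, adjusted p = 0.0126). Mccc2, of the leucine pathway, fell by 0.62 ± 0.13 (SE; 1.54-fold, adjusted p = 0.0262), and Fah, the last enzyme of tyrosine breakdown, by 0.98 ± 0.18 (SE; 1.97-fold, adjusted p = 0.0141). The other dehydrogenase subunits, named after their values were seen, differed by -0.70 ± 0.16 in Bckdhb and -0.63 ± 0.19 in Dbt and were not called. The mean level of the 23 genes was 9.45, 9.53 and 9.41 in NTG and 9.05, 9.15 and 9.10 in Tm180, without overlap. With the replicate block 11 of the 23 were called lower, and without NTG replicate 2 or Tm180 replicate 1, 0 were.

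Of 33 fatty acid oxidation genes 30 had the lower mean (median -0.35), against 45.9% of all genes, and 2 fell, against 0.214%. Acad11, an acyl-CoA dehydrogenase, was 10.24, 10.21 and 9.97 in NTG and 9.50, 9.64 and 9.60 in Tm180 and fell by 0.56 ± 0.11 (SE; 1.47-fold, adjusted p = 0.0249). Acss1, the mitochondrial acetyl-CoA synthetase, was 10.14, 10.42 and 10.21 in NTG and 9.55, 9.81 and 9.82 in Tm180 and fell by 0.53 ± 0.11 (SE; 1.44-fold, adjusted p = 0.0385). Acadm, the medium-chain dehydrogenase, differed by -0.25 ± 0.14 and the fatty acid binding protein Fabp3 by -0.15 ± 0.13. The replicate block called 17 of the 33 lower, and 0 were called without NTG replicate 1 or 2 or without Tm180 replicate 1 or 2. The mean level of the list was 10.28, 10.22 and 10.05 in NTG and 9.91, 9.84 and 9.87 in Tm180, without overlap. All 50 oxidative phosphorylation genes had the lower mean, by a median of -0.21, with 0 called by limma and 13 lower with the block. Of 25 genes of the citric acid cycle and pyruvate use 24 had the lower mean (median -0.22), with 0 called and 7 lower with the block. The cardiomyocyte markers had a median of -0.10, and their part in these lower means was not tested. Atp5a1 of the ATP synthase differed by -0.13 ± 0.14 and Ogdh of the citric acid cycle by -0.14 ± 0.078.

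Of 29 glucose and glycogen genes 2 fell (8 with the block, with 1 higher) and the median was -0.10. Without NTG replicate 1 or 2 or Tm180 replicate 1 or 2, 1 fell. Slc2a12, a glucose transporter, was 8.18, 8.15 and 8.07 in NTG and 7.06, 6.85 and 7.07 in Tm180. Its levels were close within each group, and it fell by 1.14 ± 0.17 (SE; 2.2-fold, adjusted p = 0.00157). Amy1, an amylase, was 7.65, 7.71 and 8.31 in NTG and 6.48, 6.27 and 7.10 in Tm180 and fell by 1.27 ± 0.27 (SE; 2.41-fold, adjusted p = 0.0365). The glycogen phosphorylase Pygm differed by -0.11 ± 0.14 and the aldolase Aldoa by -0.0046 ± 0.13. Further called genes of metabolism stood outside the lists. Gpt, an alanine aminotransferase, was 7.44, 7.71 and 7.58 in NTG and 6.43, 6.76 and 7.03 in Tm180 and fell by 0.84 ± 0.14 (SE; 1.79-fold, adjusted p = 0.00621). Slc36a2, a proton-coupled amino acid transporter, was 8.23, 8.21 and 7.84 in NTG and 7.05, 7.26 and 7.29 in Tm180 and fell by 0.90 ± 0.14 (SE; 1.86-fold, adjusted p = 0.00308). Kyat3, a kynurenine aminotransferase, fell by 0.67 ± 0.13 (SE; 1.59-fold, adjusted p = 0.016), and Ces1d, a carboxylesterase that acts on lipids, by 1.64 ± 0.36 (SE; 3.11-fold, adjusted p = 0.0409). Prkab1, a β subunit of the AMP-activated kinase, fell by 0.56 ± 0.12 (SE; 1.47-fold, adjusted p = 0.0444), and Grb14, an adaptor that restrains the insulin receptor, by 0.57 ± 0.12 (SE; 1.48-fold, adjusted p = 0.0409).

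**Figure D4:**
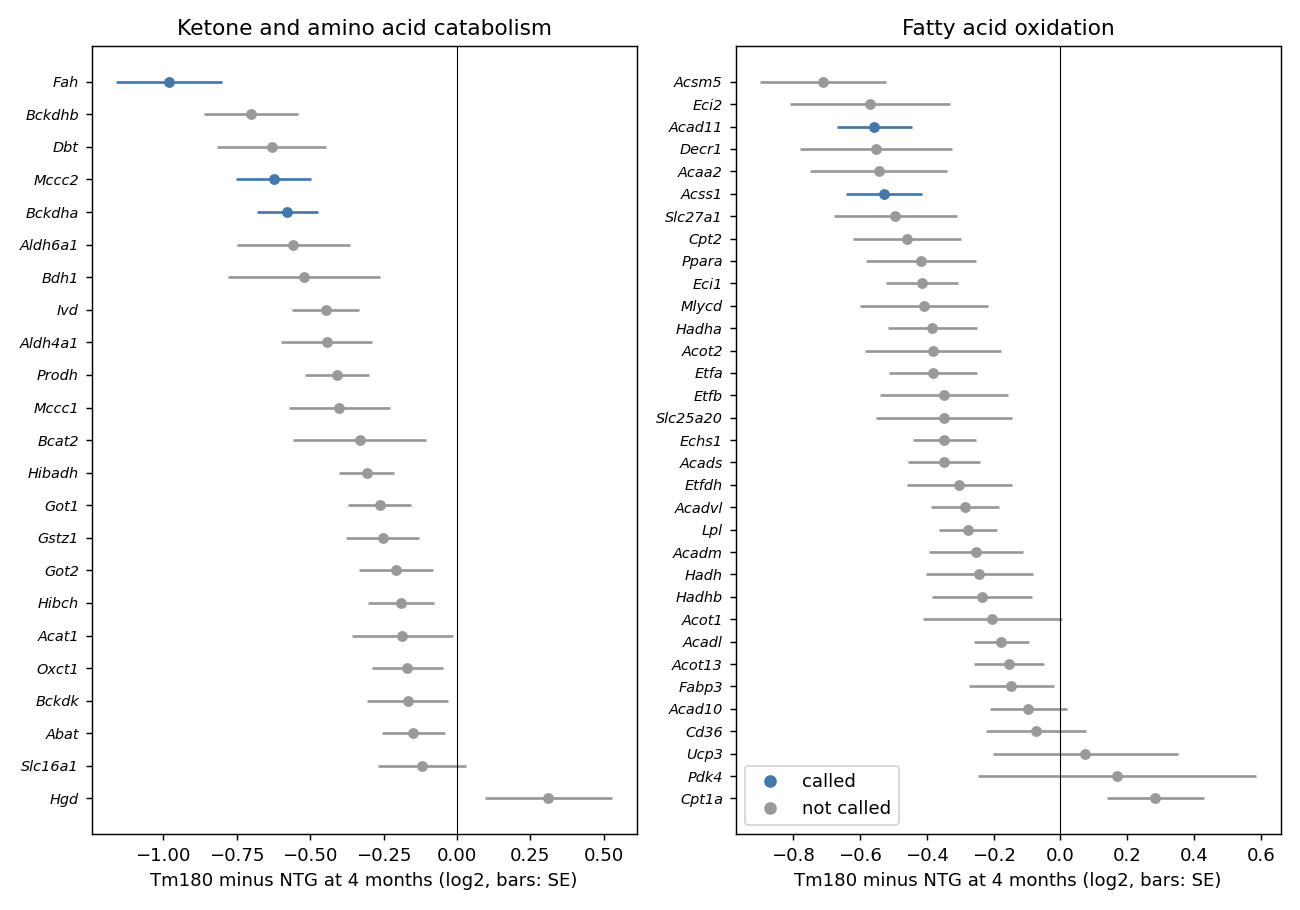
Tm180 minus NTG difference at 4 months (x axis, log2, bars are the SE) for the members of the ketone and amino acid list (left, 23 genes) and of the fatty acid oxidation list (right, 33 genes), sorted by size, with called genes in blue. Nearly all points lie left of zero, 22 of 23 and 30 of 33.

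Of 17 complement genes 2 rose and 15 had the higher mean (median 0.28), against 54.1% of all genes. Of the 17, 0 were called without NTG replicate 1, NTG replicate 2, Tm180 replicate 1 or Tm180 replicate 2. Serping1, the inhibitor of the first complement component, was 10.02, 10.15 and 10.26 in NTG and 10.96, 10.92 and 10.74 in Tm180 and rose by 0.74 ± 0.15 (SE; 1.67-fold, adjusted p = 0.0226). Masp1, a protease of the lectin pathway, was 6.77, 6.57 and 6.58 in NTG and 7.51, 7.21 and 7.16 in Tm180 and rose by 0.65 ± 0.14 (SE; 1.57-fold, adjusted p = 0.0326). Clusterin, Clu, differed by -0.04 ± 0.14. Of 6 platelet markers 1 fell and all 6 had the lower mean (median -0.37), against 45.9% of all genes. Ppbp, a chemokine precursor of platelets, was 7.83, 7.95 and 9.30 in NTG and 6.67, 6.50 and 6.17 in Tm180. NTG replicate 3 was the highest and no Tm180 heart reached an NTG heart. Ppbp fell by 1.91 ± 0.43 (SE; 3.77-fold, adjusted p = 0.0496), and the call was lost whichever array was left out. The mean of the 6 platelet markers was 6.77, 6.64 and 7.12 in NTG and 6.44, 6.40 and 6.005 in Tm180. All 4 erythroid markers also had the lower mean (median -0.23), with 0 called. The part of blood in the fall of Ppbp was not tested. Of 26 heat shock genes Hspa1l, of the 70-kilodalton family, rose by 0.83 ± 0.15 (SE; 1.78-fold, adjusted p = 0.0126), a call lost without NTG replicate 1 or Tm180 replicate 1. Of 22 oxidative stress genes, 30 cardiac transcription factors, 16 circadian genes and 25 immediate-early genes 0 were called by limma.

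Among the called genes in no list, the highest differences were these. Pamr1, a secreted protein tied to muscle regeneration, was 5.99, 6.02 and 6.41 in NTG and 7.28, 7.30 and 7.39 in Tm180 and rose by 1.19 ± 0.19 (SE; 2.27-fold, adjusted p = 0.00324). Dpysl3, a cytoskeletal protein of growing neurites, was 7.07, 7.64 and 7.67 in NTG and 8.68, 8.77 and 8.49 in Tm180 and rose by 1.18 ± 0.22 (SE; 2.27-fold, adjusted p = 0.0175). Svep1, a large matrix protein that binds cells, was 7.19, 7.45 and 7.72 in NTG and 8.32, 8.84 and 8.74 in Tm180 and rose by 1.18 ± 0.23 (SE; 2.27-fold, adjusted p = 0.0206). Adamts20, a secreted metalloprotease, was 5.35, 5.21 and 5.30 in NTG and 6.43, 6.51 and 6.35 in Tm180. Both groups were narrow, and Adamts20 rose by 1.14 ± 0.15 (SE; 2.2-fold, adjusted p = 0.000927). Among the lowest, Lgi1, a secreted leucine-rich protein, was 7.67, 7.08 and 6.81 in NTG and 5.07, 5.75 and 5.32 in Tm180 and fell by 1.81 ± 0.40 (SE; 3.5-fold, adjusted p = 0.043), a call lost whichever array was left out. Ces1d, named above, was 8.89, 9.23 and 9.34 in NTG and 7.28, 7.11 and 8.15 in Tm180. Cabcoco1 was 8.61, 8.86 and 8.38 in NTG and 7.29, 7.51 and 7.86 in Tm180 and fell by 1.06 ± 0.21 (SE; 2.09-fold, adjusted p = 0.0216). Rbfox1, a splicing factor of muscle and neurons, was 8.09, 8.10 and 8.07 in NTG and 6.92, 7.27 and 7.40 in Tm180. The NTG hearts were nearly equal, all Tm180 hearts lay below them, and Rbfox1 fell by 0.89 ± 0.13 (SE; 1.85-fold, adjusted p = 0.00178). Fah, among the amino acid genes, was 7.80, 7.89 and 8.03 in NTG and 6.46, 7.29 and 7.05 in Tm180.

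Smaller differences completed the called set. Rtn4, which shapes the endoplasmic reticulum, was 8.47, 8.28 and 8.64 in NTG and 9.47, 9.20 and 9.19 in Tm180 and rose by 0.83 ± 0.12 (SE; 1.77-fold, adjusted p = 0.00134). Pdgfrl, a secreted protein akin to a growth factor receptor, rose by 0.80 ± 0.12 (SE; 1.74-fold, adjusted p = 0.00275), and Tnfsf18, a ligand of the tumour necrosis factor family, by 0.79 ± 0.13 (SE; 1.73-fold, adjusted p = 0.00374). Log2 differences of the other higher genes were 1.05 in Ahnak2, 0.9997 in Chodl, 0.93 in Ccdc80, a secreted matrix protein, 0.91 in Syndig1, 0.85 in Star, which carries cholesterol into mitochondria, 0.82 in Slitrk4 and 0.79 in Capg, which caps actin. Further down stood Kctd16 at 0.76, Ppm1e at 0.76, Otulin, a deubiquitinase, at 0.69, Itih2 at 0.68, Ppfibp1 at 0.64, Anxa4 at 0.61, Carmil1 at 0.55 and Rab31 at 0.53. On the lower side the sodium-proton exchanger Slc9a2 differed by -0.70, Dnajc28 by -0.69, Mlf1 by -0.69, Tcaim by -0.60, Gpr155 by -0.59 and Iqgap2 by -0.58. It was -0.57 in Galm, -0.50 in Fam174b, -0.46 in Usp2, -0.45 in Tmem50b and -0.43 in Pitpnc1. Ahnak2 alone of the 81 had more than 1 probe set, and its other set gave 0.60.

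At 12 months, on 6 other arrays, all 81 genes differed in the direction seen at 4 months. Over all genes 49.5% were higher and 50.5% lower in Tm180 at that age. There limma called 127 genes (0.798% of those tested), 62 higher (0.389%) and 65 lower (0.408%), and 48 of the 81 were among them, 59.3% of the 81 and 37.8% of the 127. The 127 became 15 without Tm180 replicate 2, 43 without NTG replicate 2, 66 without NTG replicate 1, 74 without NTG replicate 3 and 0 with the 6 arrays of that age alone. The groups did not overlap in that direction in 76 of the 81 (93.8%), against 5.41% of all genes higher and 5.2% lower. The fit that called the 81 took its spread from all 24 arrays, these 6 included. Genes with narrow groups at 12 months were thereby favoured among the 81. The median of the 47 higher genes was 0.93 at 4 months and 0.71 at 12 months, and that of the 34 lower genes -0.69 and -0.65. A drop of that kind is favoured by the choice of the genes at 4 months. At 12 months Nppa was 10.35, 11.40 and 10.97 in NTG and 12.83, 13.43 and 12.98 in Tm180, a difference of 2.18 ± 0.28 (SE). Thbs4 was 6.74, 7.12 and 6.72 in NTG and 7.65, 9.63 and 7.83 in Tm180, with Tm180 replicate 2 far above the other hearts. Ppbp, at -0.02, was the gene of the 81 whose difference was nearest to zero at 12 months. The change of the difference with age, tested directly, called 0 of 15918 genes, with 144 at an unadjusted p under 0.05 and a smallest adjusted p of 0.806. Groups at 12 months were not matched in sex markers: 1 of 3 NTG hearts and 2 of 3 Tm180 hearts had the high Y-linked mean. With that mean as a covariate the medians were 0.71 and -0.59.

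At 4 months without phospholamban, in Tm180/PLB KO against PLB KO, again on 6 other arrays, all 81 genes differed in the same direction, while over all genes 50.1% were higher and 49.9% lower. No gene was called (0% of 15918), with 436 (2.74%) at an unadjusted p under 0.05 and 22 called with the replicate block, 9 of them among the 81. Those 9 were Cilp, Fah, Mfap5, Mmp2, Mylk4, Pdgfrl, Pi16, Postn and Svep1. Of the 81, 48 (59.3%) had an unadjusted p under 0.05 and 57 (70.4%) did not overlap, against 3.79% of all genes higher and 3.08% lower. The spread of these 6 arrays, too, entered the fit that called the 81, which favours genes with narrow groups here. The median was 0.42 in the 47 higher genes and -0.32 in the 34 lower genes, each under its value with phospholamban. In this pair sex and transgene cannot be told apart: all 3 PLB KO hearts had a Y-linked mean of 7.32 to 7.86, and all 3 Tm180/PLB KO hearts one of 3.25 to 3.56. With the Y-linked mean as a covariate over all arrays, 80 of the 81 kept the direction and the medians were 0.42 and -0.43. That adjustment rests mainly on other groups, which held both sex patterns, and cannot separate sex from transgene in this pair.

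As a share of the difference with phospholamban, the difference in the knockout pair ran from 1.25% in Slitrk4 to 112% in Mfap5. Genes were not tested against each other. A smaller difference in the knockout pair is also favoured by the choice of the genes in the main comparison. Postn was 7.82, 8.12 and 7.85 in PLB KO and 9.58, 9.85 and 9.75 in Tm180/PLB KO, a difference of 1.79 ± 0.30 (SE), against 1.84 with phospholamban. Mfap5 differed by 1.34 ± 0.26 (SE) and Mmp2 by 0.92 ± 0.20 (SE), both near their values with phospholamban. The levels read next came from groups that differed in more than phospholamban. Every PLB KO heart had the high Y-linked mean, and in NTG replicate 1 alone did. The immediate-early mean was 8.06 to 8.82 in the knockout pair. In NTG and Tm180 at 4 months it was 6.77 to 7.04 outside replicate 1, which had 8.07 and 7.97. The part of either in these levels was not tested. Nppa was 12.05, 11.93 and 11.92 in PLB KO and 12.69, 13.15 and 12.67 in Tm180/PLB KO, so its PLB KO hearts were already above all NTG hearts of that age and its Tm180/PLB KO hearts at the level of Tm180. Its difference was 0.87 ± 0.28 (SE). Xirp2 was 11.79, 11.52 and 11.72 in PLB KO and 11.82, 11.95 and 11.86 in Tm180/PLB KO and differed by 0.20 ± 0.11 (SE), again with PLB KO hearts above all NTG hearts. Mylk4 was 9.39, 9.14 and 9.34 in PLB KO and 8.60, 7.95 and 8.74 in Tm180/PLB KO, lower in PLB KO than in any NTG heart, and differed by -0.86 ± 0.23 (SE). Thbs4 showed another pattern. It was 6.52, 6.36 and 6.41 in PLB KO and 7.07, 7.51 and 7.37 in Tm180/PLB KO, with PLB KO near NTG and Tm180/PLB KO below every Tm180 heart, and differed by 0.89 ± 0.35 (SE). Serping1 differed by 0.13 ± 0.15 (SE) and Masp1 by 0.08 ± 0.14 (SE), with overlap of the groups in both. The test of the dependence on phospholamban called 0 of 15918 genes, with 190 (1.19%) at an unadjusted p under 0.05 and an adjusted p of 1 throughout. In the 81 the difference was smaller without phospholamban in 80, with an unadjusted p under 0.05 in 38, or in 25 with the Y-linked covariate. The 4-month arrays that chose the genes enter that test, so these counts are a description.

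**Figure D5:**
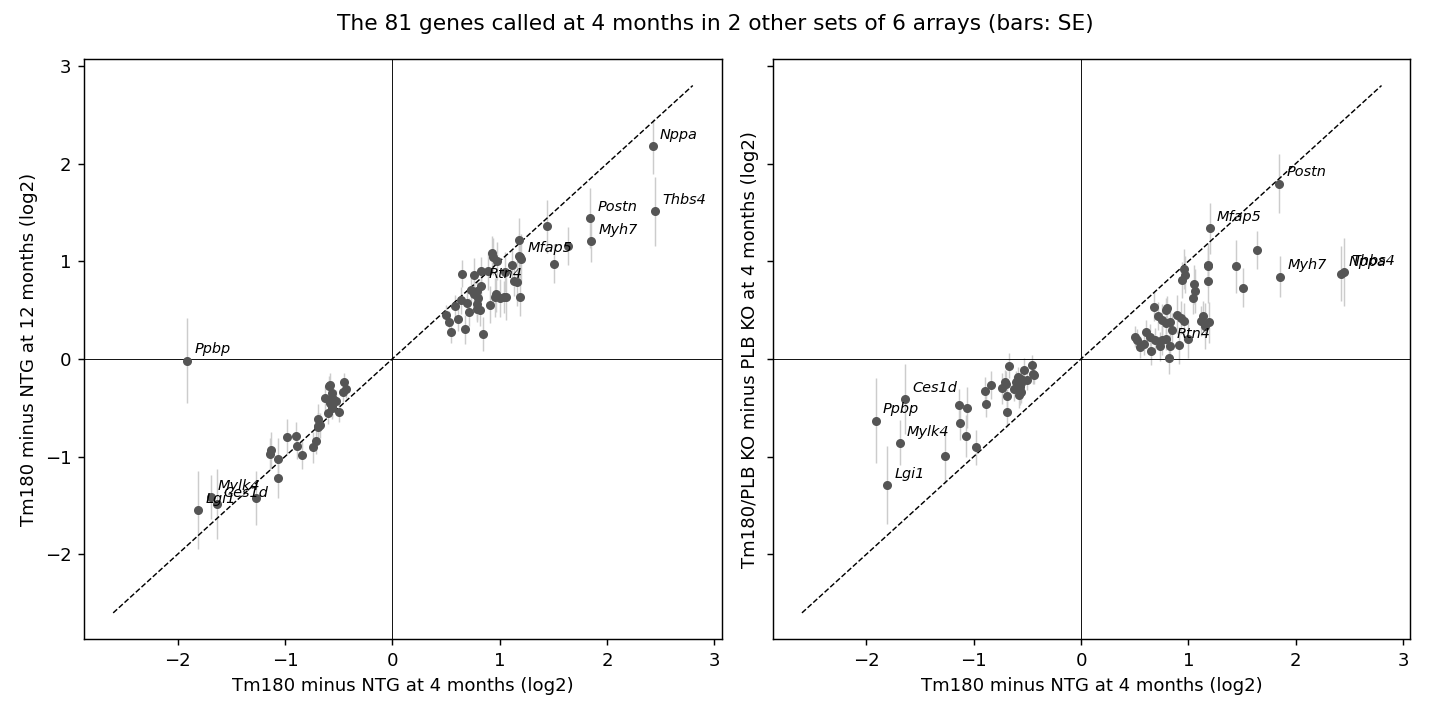
Difference of the 81 called genes at 4 months (x axis, log2) against their difference in Tm180 minus NTG at 12 months (left) and in Tm180/PLB KO minus PLB KO at 4 months (right), with SE bars on the y axis and a dashed line of equality. All 81 points lie in the same-sign quadrants in both panels, and on the right 80 lie nearer to zero than the line.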

How the data were processed

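RNA of 24 left ventricular samples was measured on Affymetrix arrays, 3 in each of 8 groups taken from the sample titles. The deposited values are log2 expression levels of probe sets, for which the submitters' processing notes name the RMA method. This method corrects background, puts the arrays on 1 distribution and summarises the probes, so a shift shared by most genes would be removed. Not given in the sources used here were the version, the settings or a build for the probe sets. Of 35557 probe sets, 21789 carried 1 gene symbol in the platform annotation, 1621 several and 12147 none, and 21698 matched a RefSeq gene of GRCm38.p6. Each of the 998 genes with several probe sets was read from its brightest one by mean. Genes above 4.83 (the 25th percentile) on at least 3 arrays were kept, 15918 of 19938.

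In R 4.3.3, limma 3.58.1 fitted a mean for each of the 8 groups to all 24 arrays, with 16 residual degrees of freedom and the empirical Bayes prior, and p-values were adjusted by Benjamini-Hochberg over the 15918 genes. All adjusted p-values are from that model. It was run on simulated data with independent noise and 1 spread a gene. That run cannot speak for deviations that same-numbered arrays share. With 3 arrays a group, an exact permutation test could not go below 0.1 and none was used. The number of arrays limits the precision, and the median SE of the main comparison was 0.159. Nothing in the labels beyond the word biological says that arrays came from separate animals, so the p-values measure the spread between these samples. The comparison, the 45 gene lists and the named genes were chosen with earlier results of these data known. Named were Tpm1 and Pln, the 15 highest and 15 lowest called genes whose groups did not overlap, every called list member, the 2 members with the highest level in a list, and other called genes, while 1 clone-named gene was only counted. List members count as measured where the dim filter kept them, and 859 of 922 list entries were matched to a gene on the arrays.

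Same-numbered arrays of NTG and Tm180 at 4 months deviated from their group means together (0.748, 0.388 and 0.755). The same held for the knockout pair (0.564, 0.373 and 0.705) but not at 12 months (0.159, 0.0556 and 0.586). The pairing comes from the data, as the labels do not explain the numbers. Alternatives were the replicate block, the filter, the prior, array weights, median centring, the probe set rule, covariates, the compared arrays alone and each array left out.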

Additional observations from a re-analysis of the deposited data

How the results depend on the processing

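For Tm180 against NTG at 4 months the count of called genes was 81. It was 557 with the replicate number as a block, 776 with array weights, 159 with the immediate-early mean as a covariate (87 higher and 72 lower) and 13 with the 6 compared arrays alone (11 higher and 2 lower). With those 6 arrays and the block together, an alternative chosen after seeing the data, it was 346. It ranged from 22 to 81 when 1 array was left out. The other alternatives gave 66 without the dim filter, 116 at the 50th percentile (6.23, 10944 genes), 95 with a trended robust prior, 87 with the mean of a gene's probe sets, 103 with the Y-linked and 96 with the atrial covariate. For the 12-month count of 127 the block gave 713, in groups whose replicates 1 and 2 were not shown to pair. There the compared arrays alone gave 0, with and without the block, and arrays left out gave 15 to 144. The age difference had 0 calls, and 1 with the immediate-early covariate; leaving out an array gave 0 to 1. For the knockout pair, with 0 calls, the paired block gave 22, the filter at the 50th percentile 3, the trended robust prior 3, array weights 5, the immediate-early covariate 4, the compared arrays alone 10, these with the block 50, and arrays left out 0 to 1. The dependence on phospholamban had 0 calls, 1 with the compared arrays and the block together, and 0 to 1 with an array left out. No named gene called at 4 months changed direction in any of these alternatives. For arrays left out that outcome was fixed, as the groups of these genes did not overlap. Of the 80 named called genes, the block, array weights, the immediate-early covariate and the mean of probe sets kept all 80 calls, the Y-linked covariate 79, the atrial covariate 76, median centring 74, no dim filter 64 and the compared arrays alone 10. The cause of these shifts was not tested. Signal over background was not analysed here, and dim genes were limited only by the filter.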

Other observations

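Several genes with large differences were not called, and are named here after their values were seen. Enpp3, an ectonucleotidase, had the highest difference of all genes, 2.97 ± 0.72 (SE; adjusted p = 0.0732). Its level was 6.08, 6.84 and 6.83 in NTG and 6.43, 11.05 and 11.18 in Tm180 at 4 months. The high values were in Tm180 replicates 2 and 3, the hearts with the high Xist level, while replicate 1 lay within the NTG range. In the other 18 arrays of the series Enpp3 lay between 6.16 and 7.16, so no other heart, of any genotype or Xist level, came near those 2.

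Prg4, lubricin, was 5.63, 5.995 and 5.59 in NTG and 8.22, 7.73 and 6.91 in Tm180, a difference of 1.88 ± 0.64 that was not called. The complement gene C4b was 5.96, 5.96 and 6.33 in NTG against 7.29, 7.42 and 7.33 in Tm180 (1.26 ± 0.29, adjusted p = 0.0598). In Tm180/PLB KO against PLB KO its difference was -0.08. Cyp2b10, a cytochrome P450, was 6.88, 7.75 and 7.60 in NTG and 5.71, 5.26 and 6.01 in Tm180 (-1.75 ± 0.45, adjusted p = 0.0906). Ryr3, an intracellular calcium release channel, was 5.52, 5.23 and 5.30 against 7.16, 6.07 and 6.42 (1.204 ± 0.28, adjusted p = 0.061). The atrial potassium channel gene Kcnj3 was 7.67, 8.09 and 7.77 against 5.99, 7.06 and 7.28 (-1.07 ± 0.25, adjusted p = 0.056).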
